A study of Saccharomyces cerevisiae with 16 samples.

Results

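The silent mating cassettes HML and HMR and the genes of the Sir silencing proteins were described by their peaks of H3K4me3, the trimethylation of histone H3 at lysine 4. The genes were HMLALPHA1 and HMLALPHA2 at HML, HMRA1 and HMRA2 at HMR, and SIR1, SIR2, SIR3 and SIR4. They were chosen by name, 8 of the 6002 coding genes of the nuclear chromosomes, and every deposited peak over one of them or within 2 kb on either side was taken. This gave 94 of the 30113 peaks that the 8 libraries held on native chromosomes, 10 to 13 in each library. By locus there were 6 peaks at HML, 8 at HMR, 8 at SIR1, 24 at SIR2, 23 at SIR3 and 25 at SIR4.

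In budding yeast the mating type is set by the genes at MAT, on chromosome III. HML and HMR carry further copies of alpha and a information near both ends of the same chromosome, and these copies are kept silent. Silencer elements beside them recruit Sir1, which helps to bring in Sir2, Sir3 and Sir4; Sir2 is a histone deacetylase, and Sir3 and Sir4 bind the deacetylated nucleosomes and spread along them. H3K4me3 is laid down by the Set1 complex at the 5 prime ends of transcribed genes and is known to be low in Sir-bound chromatin.

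The libraries, although their titles read ChIP, were made by CUT&RUN, which uses a nuclease tethered to an antibody to release the bound chromatin. They came from BY4741, a haploid laboratory yeast of mating type a that needs histidine, leucine, methionine and uracil. All strains carried a synthetic human HPRT1 locus or its reversed form, HPRT1R, which is unrelated to silencing, and all were grown at 30 °C for 6 hours to an optical density of about 0.6. The 4 groups, with 2 libraries each, were HPRT1R on a yeast artificial chromosome (YAC), HPRT1 on a YAC, HPRT1R integrated on chromosome XI and HPRT1 integrated on chromosome XI. The medium was SC-Leu, a synthetic one, for YAC strains and YPD, a rich one, for integrated strains, so that configuration and medium cannot be told apart. The IgG control samples, 8 in number, were not analysed here.

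The lists held 3463 to 4049 peaks. The caller's expected pileup, the only depth that could be recovered, differs between peaks. At percentile 10 of the native peaks of each list it was 76.2 to 98.9 reads. The median fold of native peaks, the authors' own value over the caller's expectation, was 1.86, 2.16, 2.04 and 2.04 in the YAC libraries and 2.16, 2.21, 2.36 and 2.26 in the integrated ones, in the order HPRT1R replicates 1 and 2, then HPRT1 replicates 1 and 2. That order is kept wherever 4 values are given for a configuration. The labels of HPRT1 YAC replicate 2 conflict: the cell line given is that of the HPRT1R YAC, but HPRT1 stands in its title, source and genotype. It was kept as HPRT1, and the comparison of the sequences is also given without it. The labels do not tell whether replicates were grown as separate cultures, and the p-values cover only the spread between these libraries, which may be technical.

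HMRA1, HMRA2, SIR2, SIR3 and SIR4 were marked in all 8 libraries, SIR1 in 7, and HMLALPHA1 and HMLALPHA2 in none. Marked means that at least 1 bp of a peak fell between 200 bp before and 500 bp after the annotated start. Thus 5 of the 8 genes were marked in all libraries, against 66.5% of all coding genes, and 2 of the 8 in none, against 14.8%. No base of HMLALPHA1, HMLALPHA2 or HMRA2 lay under a peak in any library, which held for 15.0% of all genes. By a stricter rule, a summit from 0 to 500 bp after the start, 0 of the 8 genes were marked in all libraries, against 16.3% of all genes. HMRA1 then counted in 6 libraries, SIR2 in 5 and the other 6 genes in none, against 33.2% of all genes in none.

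HML is described first. HMLALPHA2 (YCL067C, III:12386-13018, minus strand) and HMLALPHA1 (YCL066W, III:13282-13809, plus strand) encode the alpha2 repressor and the alpha1 activator and are divergent. Coordinates are those of the sacCer3 build, counted from 1. The 1424 bp from the end of one gene to the end of the other held 0 bases under peaks in 8 of 8 libraries. In the reference genome the alpha genes stand at MAT too, and how reads that match both loci were placed is not given. An absence of the mark at HML therefore cannot be told apart from a loss of such reads.

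To the left of HML, a weak peak over YCL068C, an open reading frame next to HMLALPHA2, was called in 6 of 8 libraries. It was missing from HPRT1R YAC replicate 1 and HPRT1 YAC replicate 1. The peak began at position 11883 in HPRT1R YAC replicate 2 and at 11955 in HPRT1 YAC replicate 2. In the integrated libraries it began at 11801, 11863, 11861 and 11863. Its start thus varied by less than the width of the peak, and YAC and integrated libraries did not separate by strength, as the folds show: 1.53 and 1.32 in these YAC libraries and 1.76, 1.57, 1.62 and 1.46 in the integrated ones. The peak ended at 12167 in 3 libraries, at 12169 and 12172 in a further pair and at 12040 in HPRT1R integrated replicate 2. These ends lie 213 to 345 bp short of the HMLALPHA2 gene, with a median of 218 bp. The summit pileup was 112 to 138 reads, and the −log10 q was 2.23 to 8.50, where the lists themselves begin between 1.38 and 1.66. By fold the peak stood at percentile 0.763 to 21.3 among native peaks of its list, so that it was one of the weak peaks in each library. No other peak lay between it and the left end of the chromosome in any library. VBA3, a vacuolar amino acid permease gene, and GEX1, a glutathione exchanger gene, lie on that side and were marked in 0 libraries.

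The YCL068C peak lies in sequence that HML may share with MAT, and this could be compared by position. HML and MAT both have the alpha genes in the reference genome, and both alpha1 and alpha2 are offset by exactly 187160 bp between the loci. Moved by this offset, the HML peak fell entirely inside the peak at BUD5 beside MAT in 6 of 6 libraries. BUD5 encodes an exchange factor for bud site selection. Its peak reached from 198888 to 199449 over the libraries, with a fold of 2.07 ± 0.154 (SD, n = 8), against 1.54 ± 0.147 (SD, n = 6) for the peak at HML. The BUD5 peak was present in 8 of 8 libraries and stopped 96 to 129 bp short of MATALPHA2. How reads that match both loci were placed is not given in the sources used here, so that the signal of HML and MAT at this place cannot be told apart.

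To the right of HML, a next peak was called in every library, at the divergent genes CHA1 (III:15798-16880, minus strand) and VAC17 (III:17290-18561, plus strand). In 7 libraries it ran over the start of VAC17, with its summit just inside that gene, and in HPRT1R integrated replicate 1 it lay within CHA1. CHA1 encodes a serine and threonine deaminase, and VAC17 an adaptor for vacuole inheritance. The near edge of this peak was 3276, 3279, 3376 and 3395 bp from the end of HMLALPHA1 in the YAC libraries, and 2731, 2731, 2823 and 3065 bp in the integrated ones. The ranges did not overlap, the YAC libraries all being farther. Such a separation was seen with YAC farther at 3.79%, and with YAC nearer at 1.10%, of the 5903 coding genes that have a peak to the right in every library. The distance averaged 3332 ± 62.8 bp in YAC libraries and 2838 ± 158 bp in integrated libraries (SD, n = 4 each). In the integrated libraries the peak edge lay inside CHA1, which was marked in 4 libraries, all of them integrated, whereas VAC17 was marked in 8. This split in marking rests on few bases in some libraries. The peaks of the HPRT1R YAC libraries began at 17086 and 17089, just beyond the start window of CHA1. That of HPRT1 integrated replicate 2 began at 16875, just inside the gene. The peak of HPRT1R integrated replicate 1, separate from that at VAC17, had a fold of 1.68, against 2.59 to 3.90 in the other 7 libraries.

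Between the left and right peaks, HML sat in a stretch without a peak. It was 4921 and 5037 bp long in the 2 YAC libraries that had the left peak, and 4371, 4500, 4460 and 4707 bp in the integrated ones. The YAC stretches were the longer ones. They end at the right peak, whose edge was already given as farther in YAC libraries, so that this is not a separate result. The share of all stretches that separate in this way was not counted. Among the stretches between neighbouring native peaks of the same library these stood at percentile 86.8 to 90.4. In the 2 YAC libraries without the left peak, the stretch ran from the right peak to the first base of the chromosome, over 17085 and 17185 bp. Counted over both ends of the 16 chromosomes, those were the 13th and the 10th longest peak-free ends of 32. Left ends were counted from the first base, but right ends only to the outermost annotated gene or peak, so the sides are not measured alike.

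HMR differed from HML in its called peaks, within the limit on reads at HML given above. A peak lay between the HMR genes and over HMRA1 in 8 of 8 libraries. HMRA2 (YCR096C, III:293179-293538, minus strand) has no known function. HMRA1 (YCR097W, III:293835-294321, plus strand) encodes the a1 repressor, which acts together with alpha2 in diploid cells. The peak began between 293559 and 293701, that is 21 to 163 bp outside the start of HMRA2, and its summit lay from 108 bp before to 53 bp after the start of HMRA1.

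The peak came in a long and a short form. It was 757 bp wide in HPRT1R YAC replicate 1, 682 bp in HPRT1 YAC replicate 2, 709 bp in HPRT1 integrated replicate 1 and 754 bp in HPRT1 integrated replicate 2. It was 337 bp wide in HPRT1R YAC replicate 2, 209 bp in HPRT1 YAC replicate 1, 281 bp in HPRT1R integrated replicate 1 and 352 bp in HPRT1R integrated replicate 2. The long form reached 419 to 480 bp into HMRA1 and the short form 74 to 100 bp. The share of HMRA1 under the peak was accordingly 86.2 to 98.8% in the first 4 libraries and 15.4 to 20.7% in the other 4. Both YAC groups held 1 library of each form. Both HPRT1R integrated libraries had the short form and both HPRT1 integrated libraries the long form. The share of all peaks that split so between 2 libraries and 2 was not counted, and an effect of the sequence was not tested. The median width of native peaks was 651, 605, 664 and 699 bp in the libraries with the long form, against 581, 540, 593 and 623 bp in those with the short form, and the part of this in the difference was not tested.

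By strength the HMR peak was mostly of low rank. Its fold was 2.46, 1.91, 1.46 and 1.99 in the YAC libraries and 1.68, 1.77, 1.94 and 2.33 in the integrated ones, with a mean of 1.94 ± 0.329 (SD, n = 8). The summit pileup was 245, 151, 125 and 185 reads in the YAC libraries, against 132, 148, 149 and 180 reads in the integrated ones. The groups overlapped, and over all 8 libraries HPRT1R YAC replicate 1 was highest and HPRT1 YAC replicate 1 lowest in both measures. By fold the peak stood at a median percentile of 29.1 among native peaks, with a range from 4.97 to 89.5. Its −log10 q was 3.80 at the lowest and 32.6 at the highest. BY4741 carries the a genes at MAT as well, where the reference has alpha genes, so that reads from the active a1 gene at MAT and from the silent HMRA1 cannot be told apart in these lists. MATALPHA1 and MATALPHA2, the reference genes at MAT, had 0% of their span under peaks in 8 of 8 libraries.

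The left border of HMR was set by different peaks in different libraries. The nearest peak edge lay 3837, 6190, 3093 and 3839 bp from HMRA2 in the YAC libraries and 6190, 6199, 3830 and 6188 bp in the integrated ones. The ranges overlapped. The distances near 3830 bp belong to a peak at the start of OCA4, called in 3 libraries. That of 3093 bp belongs to a peak from 289790 to 290085, called in 1. This peak overlaps only the end of YCR095W-A, an open reading frame that stops at 289797, and its summit lies beyond the frame. The other 4 libraries had no peak up to the start of CDC50, which encodes a subunit of a lipid flippase and was marked in 8 libraries. The stretch without a peak to the left of HMR was 4217, 6599, 3615 and 4233 bp in the YAC libraries and 6666, 6588, 4217 and 6568 bp in the integrated ones. These stretches stood at percentile 80.4 to 95.6 of native stretches of the same library.

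To the right of HMR, 7 of 8 libraries had no further peak up to the last annotated feature of the chromosome. In these 7 libraries the stretch without a peak was 21873 to 22279 bp long. It ranked from the 3rd to the 9th longest of the 32 chromosome ends, counted as for HML. HPRT1 integrated replicate 1 had a single peak there, at 311009 to 311184 over the start of RDS1, a transcription factor gene. That peak was weak, with a fold of 1.39 and a −log10 q of 2.60, and it lay 16687 bp from HMRA1. The threonine tRNA gene YNCC0014W (III:295484-295556), known as the barrier that limits silencing on this side of HMR, and GIT1, a permease gene beyond it, lay in the peak-free stretch.

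**Figure D1:**
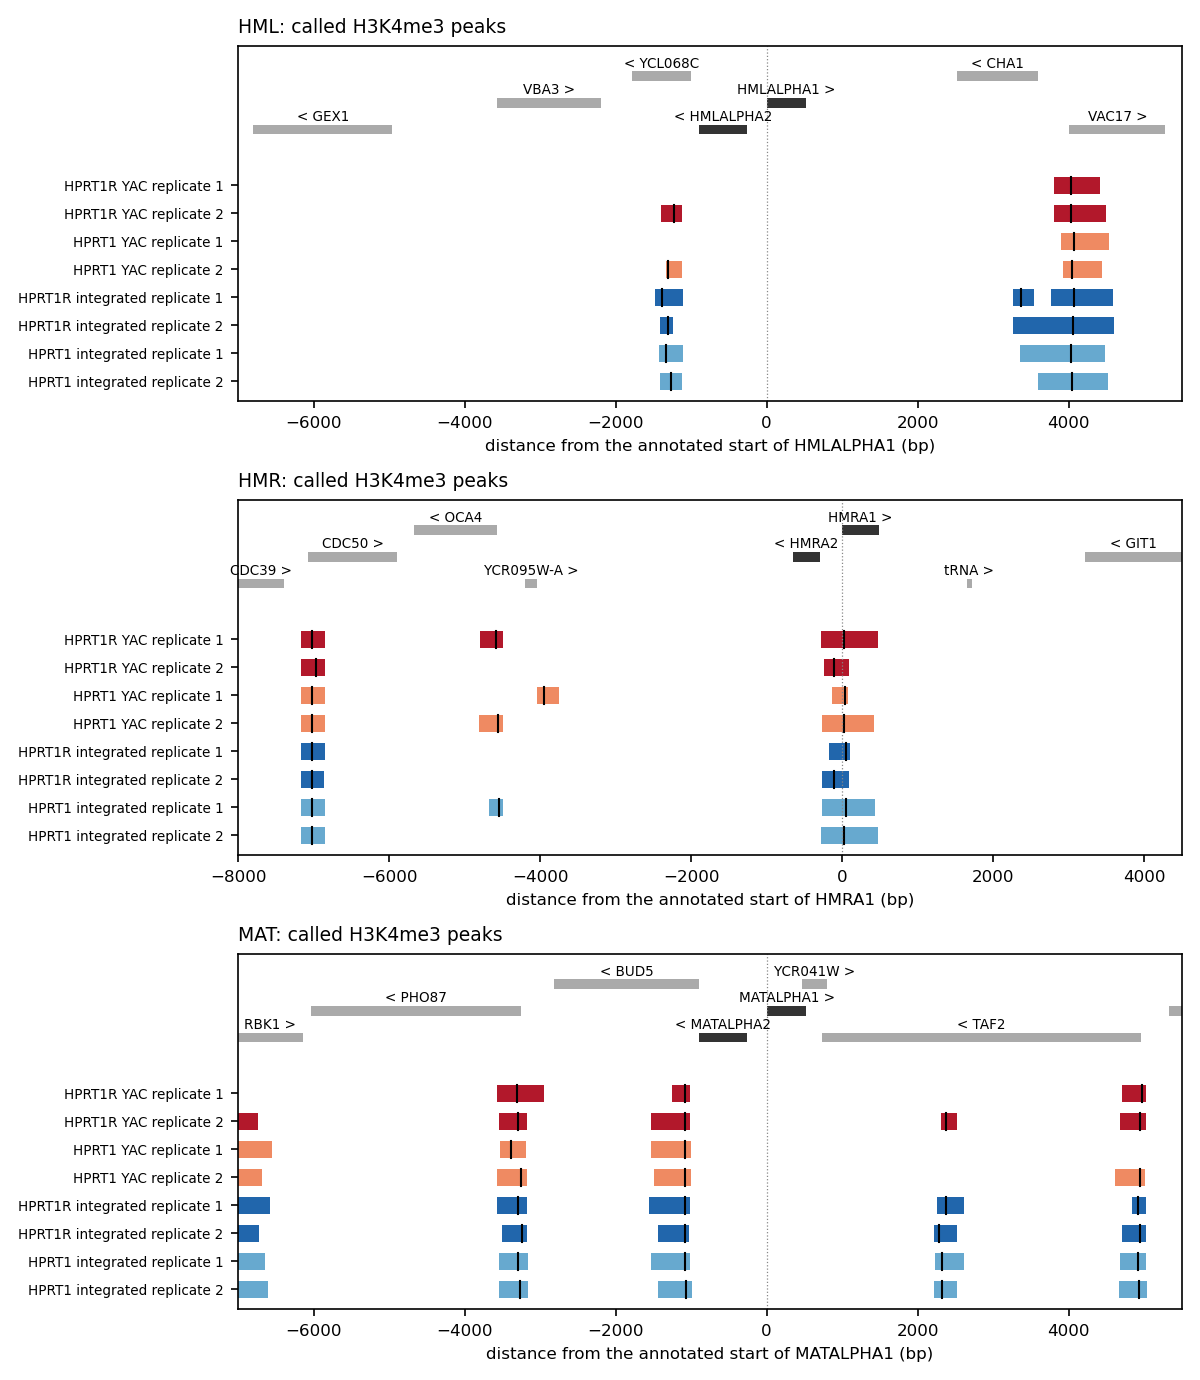
Called H3K4me3 peaks (coloured bars, black ticks at the summits) in each of 8 libraries around HML, HMR and MAT, by distance in bp from the start of HMLALPHA1, HMRA1 or MATALPHA1. Grey bars are annotated genes with their direction and black bars the mating type genes. The HML genes are free of peaks in all 8 libraries, a long or short peak lies at HMRA1 in all 8, and the peak right of HML starts nearer in the integrated libraries.

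The SIR genes carried start peaks in nearly every library, unlike the HML genes. SIR2 (YDL042C, IV:376757-378445, minus strand), the deacetylase, had a peak over its start in 8 libraries. It ran from 90 to 140 bp before the gene start to 416 to 549 bp after it and covered 24.7 to 32.6% of the gene. Its summit lay within 42 bp of the start in 4 libraries and 200 to 226 bp after it in the other 4.

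Of the start peaks of HMRA1, SIR2, SIR3 and SIR4, only that of SIR2 had folds that did not overlap between configurations. Its fold was 2.21, 2.71, 2.37 and 2.44 in the YAC libraries and 2.73, 3.42, 3.51 and 3.24 in the integrated ones. The YAC libraries were all lower, as was so for 17.9% of the 3991 genes marked in all libraries, while 0.200% had all YAC libraries higher. Such a separation was thus common and not particular to SIR2. It was also narrow: HPRT1R YAC replicate 2, at 2.71, and HPRT1R integrated replicate 1, at 2.73, both had a summit pileup of 215 reads. The median fold of all native peaks, given above, also separated the configurations in this direction, by 2.1608 at the highest in YAC libraries against 2.1615 at the lowest in integrated ones. Ranked within its own list, the SIR2 peak stood at percentile 71.3 to 78.3 in YAC libraries and 79.5 to 93.2 in integrated libraries, again without overlap, as 3.88% of those genes did with YAC lower and 4.01% with YAC higher. By sequence, the folds of HMRA1, SIR2, SIR3 and SIR4 overlapped between HPRT1R and HPRT1 libraries, and the HPRT1R libraries were all higher at 0.0501% and all lower at 1.18% of those genes. Between configurations, the folds of HMRA1, SIR3 and SIR4 overlapped.

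SIR1 (YKR101W, XI:640540-642504, plus strand), whose product binds at the silencers, had a peak with its summit upstream of its start in 7 libraries and none in HPRT1 YAC replicate 1. The peak was 528, 550, 685 and 536 bp wide in HPRT1R YAC replicate 1, HPRT1 YAC replicate 2 and HPRT1 integrated replicates 1 and 2, and 216, 213 and 181 bp wide in HPRT1R YAC replicate 2 and HPRT1R integrated replicates 1 and 2. The summit lay 223 to 298 bp before the start. The fold was 2.06 and 2.49 in HPRT1R YAC libraries, 2.01 in HPRT1 YAC replicate 2, and 2.44, 2.35, 2.75 and 2.33 in the integrated libraries, with a mean of 2.35 ± 0.253 (SD, n = 7). The downstream edge reached 53 to 108 bp into the gene in HPRT1R YAC replicate 1, HPRT1 YAC replicate 2 and both HPRT1 integrated libraries. It stopped 168 to 171 bp before the gene in HPRT1R YAC replicate 2 and both HPRT1R integrated libraries. These are the libraries with the long and with the short form at HMR, and HPRT1 YAC replicate 1, which had no SIR1 peak, had the shortest peak at HMR. The pattern was noticed after the values were seen and was not tested, and its share over all peaks was not counted. SKG1, a gene linked to the cell wall that lies divergent from SIR1, counted as marked in 6 libraries by the same peak. HPRT1R YAC replicate 1 alone had a second peak near SIR1, from 2366 to 2680 bp after its start and thus beyond the gene end, with a fold of 1.50.

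SIR3 (YLR442C, XII:1019315-1022251, minus strand), a nucleosome-binding silencing protein, shared its peak with the divergent gene ECM7. The peak was 937 to 1051 bp wide and covered the first 224 to 228 bp of SIR3 in all 8 libraries, that is 7.66 to 7.80% of the gene. Its summit was 267 to 460 bp before the start of SIR3, on the side of ECM7. The fold was 2.34, 2.66, 2.25 and 2.35 in the YAC libraries and 2.18, 2.51, 2.33 and 2.56 in the integrated ones, with a mean of 2.40 ± 0.163 (SD, n = 8). The values of both configurations lay within the same range, and reads of the SIR3 and ECM7 starts cannot be separated within 1 peak.

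SIR4 (YDR227W, IV:917571-921647, plus strand), the scaffold of the Sir complex, had a start peak of its own in 5 libraries and a merged one in 3. Its own peak began 148 to 184 bp before the start and ended 177 to 477 bp after it. In HPRT1R YAC replicate 1 and both HPRT1 integrated libraries it was merged with the peak of ADK1, the adenylate kinase gene just upstream, and in the last 2 also with that of the histone gene HTA1. The fold was 2.36, 1.81, 1.57 and 2.10 in the YAC libraries and 1.52, 2.41, 2.90 and 2.94 in the integrated ones, with a mean of 2.20 ± 0.551 (SD, n = 8). In the 3 merged cases, of 2.36, 2.90 and 2.94, the summit lay 546 to 1323 bp before SIR4, so that the fold belongs to the neighbour. In the 5 libraries with a separate peak the fold was 1.52 to 2.41.

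**Figure D2:**
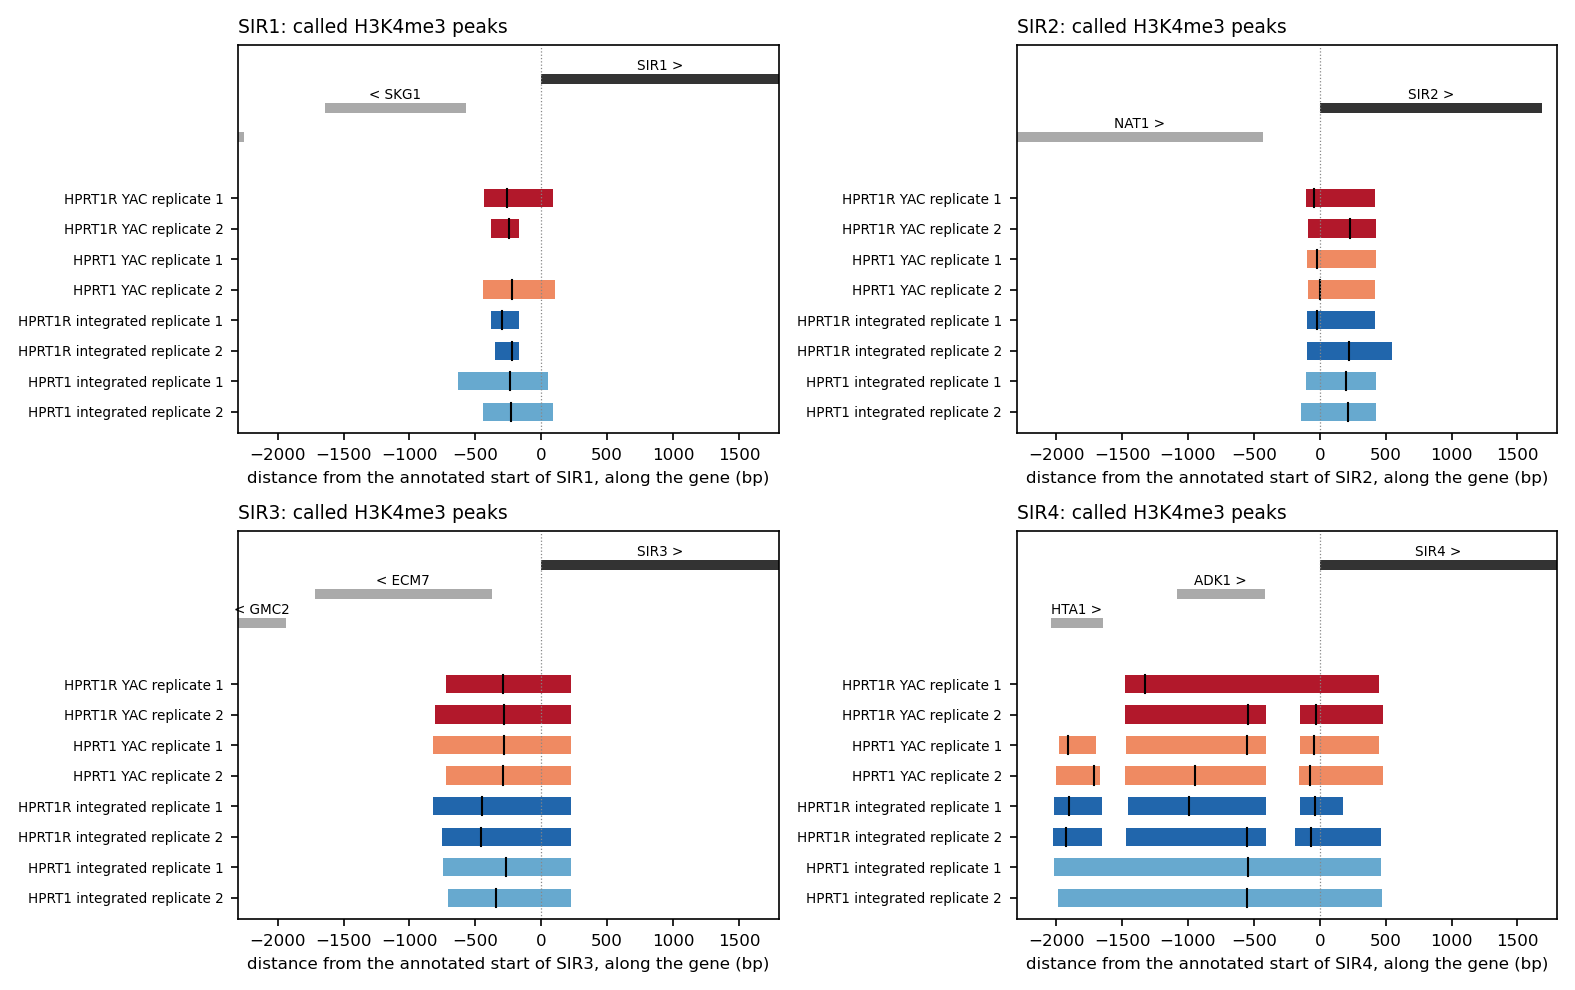
Called H3K4me3 peaks (coloured bars, black ticks at the summits) around SIR1, SIR2, SIR3 and SIR4 in each of 8 libraries, by distance in bp from the gene start, with the gene running to the right. SIR2 and SIR4 peaks run into the gene, the SIR3 peak extends upstream over the start of ECM7, and the SIR1 peak lies mostly upstream and is missing from HPRT1 YAC replicate 1.

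**Figure D3:**
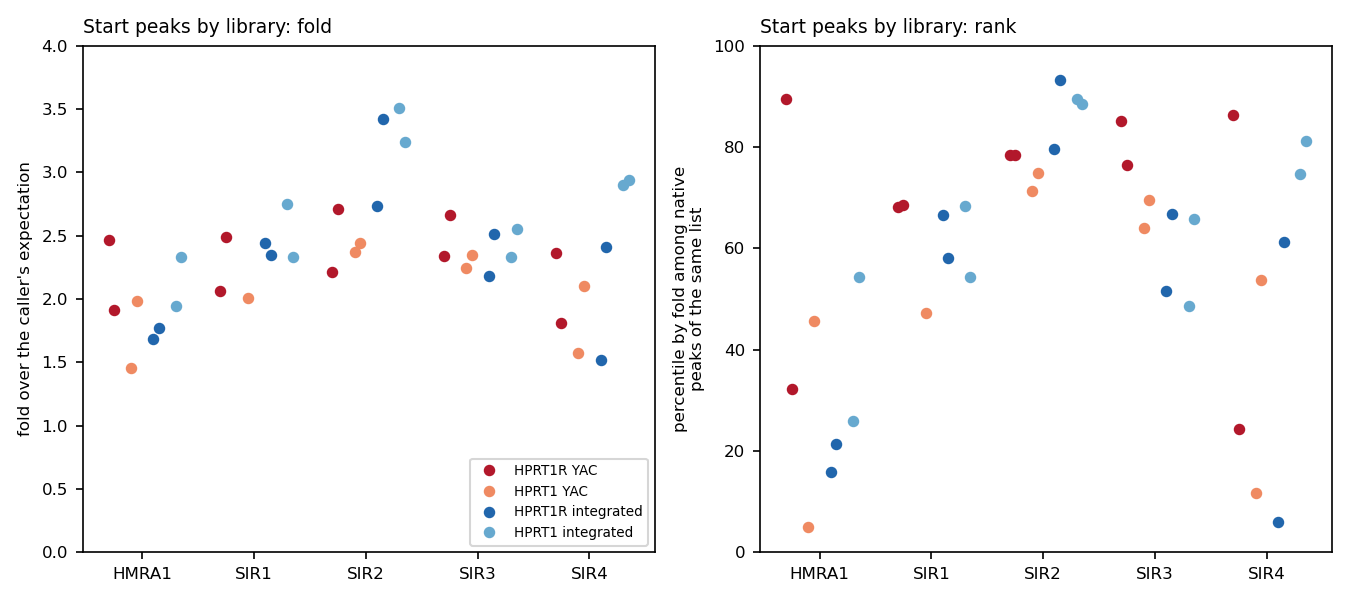
Fold over the caller's expectation (left) and percentile among native peaks of the same list (right) of the start peak of HMRA1 and the SIR genes, 1 point per library, coloured by group with YAC groups left of integrated ones. The 4 YAC points of SIR2 lie below the 4 integrated points in both panels, the nearest at folds of 2.71 and 2.73. The points of HMRA1 range from percentile 4.97 to 89.5. Those of SIR4 in HPRT1R YAC replicate 1 and both HPRT1 integrated libraries are of peaks merged with the upstream neighbour.

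Compared with the rest of the genome, the cassettes and SIR1 had little peak coverage when 2 kb on either side were included. The HMRA1 gene alone was covered at 15.4 to 98.8%. The limits given above on reads shared with MAT hold for the HML and HMR values here too. The cassettes and SIR1 also lie near chromosome ends: HMLALPHA1 is 13281 bp from the left end. HMRA1 and SIR1 are 21867 and 20785 bp from the last annotated feature of their chromosomes. SIR3 is 55647 bp from that feature, and SIR2 and SIR4 are farther from either end. The part of position in the coverage was not tested. The share of the gene and 2 kb on either side under peaks averaged 4.59 ± 3.12% for HMLALPHA1, 11.4 ± 5.24% for HMRA1 and 6.76 ± 4.89% for SIR1 (SD, n = 8 each). It averaged 24.4 ± 1.51% for SIR2, 34.7 ± 2.00% for SIR3 and 29.2 ± 3.65% for SIR4 (SD, n = 8 each). The median over all 6002 genes was 28.4%. HMLALPHA1 stood at percentile 6.21 of all genes, HMLALPHA2 at 6.08, SIR1 at 8.16, HMRA1 at 14.2, HMRA2 at 14.6, SIR2 at 40.4, SIR4 at 51.8 and SIR3 at 63.9. In this order HMLALPHA1, HMLALPHA2, SIR1, HMRA1 and HMRA2 overlapped in their ranges over libraries, and so did SIR2 with SIR4 and SIR4 with SIR3.

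Between YAC and integrated libraries, the groups overlapped in this share for all 8 genes. Over all genes, the YAC libraries were all above the integrated ones at 1.15% of genes and all below at 8.86%. HMLALPHA1 had 0, 6.29, 0 and 4.70% under peaks in the YAC libraries, against 8.15, 3.93, 6.89 and 6.74% in the integrated ones. The difference was -3.68 percentage points (exact two-sided permutation test, p = 0.143, adjusted p = 0.507, n = 4 each). SIR4 had 27.7, 24.9, 28.0 and 29.3% in the YAC libraries and 25.2, 29.5, 34.4 and 34.5% in the integrated ones, a difference of -3.41 points (exact permutation p = 0.2, adjusted p = 0.577). SIR2 had 21.3, 24.96, 24.7 and 23.4% in the YAC libraries and 25.2, 25.8, 23.9 and 25.9% in the integrated ones, a difference of -1.59 points (exact permutation p = 0.114, adjusted p = 0.467). SIR3 averaged 35.2 ± 2.74% and 34.2 ± 1.06%, SIR1 6.74 ± 6.22% and 6.77 ± 4.14%, and HMRA1 11.1 ± 5.90% and 11.7 ± 5.39% in YAC and integrated libraries (SD, n = 4 each), with exact permutation p-values of 0.686, 1 and 0.743. The smallest p this design can give is 0.0286, and 0 of 6002 genes passed an adjusted p of 0.05, the smallest being 0.285, while 601 genes had an unadjusted p under 0.05.

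Between HPRT1R and HPRT1 libraries the groups overlapped for all 8 genes too. The HPRT1R libraries were all above at 0.400% of all genes and all below at 1.07%. SIR4 had 26.8 ± 2.16% in HPRT1R libraries and 31.6 ± 3.41% in HPRT1 libraries (SD, n = 4 each), a difference of -4.73 points (exact permutation p = 0.0857, adjusted p = 1). Without HPRT1 YAC replicate 2, whose labels conflict, it was -5.47 points (exact permutation p = 0.114, adjusted p = 1), and with equal numbers of peaks in each library it was -2.0 points. HMRA1 had 9.62 ± 4.88% and 13.1 ± 5.68% (SD, n = 4 each), a difference of -3.49 points (exact permutation p = 0.486), or -2.80 points without that library. The differences of HMLALPHA1, SIR1, SIR2 and SIR3 were 0.0110, -1.33, -0.141 and 1.26 points, and 0.0515, -0.733, -0.489 and 1.27 points without that library. Again 0 genes passed an adjusted p of 0.05, the smallest being 1, while 88 genes had an unadjusted p under 0.05. No other tool was run on these values.

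**Figure D4:**
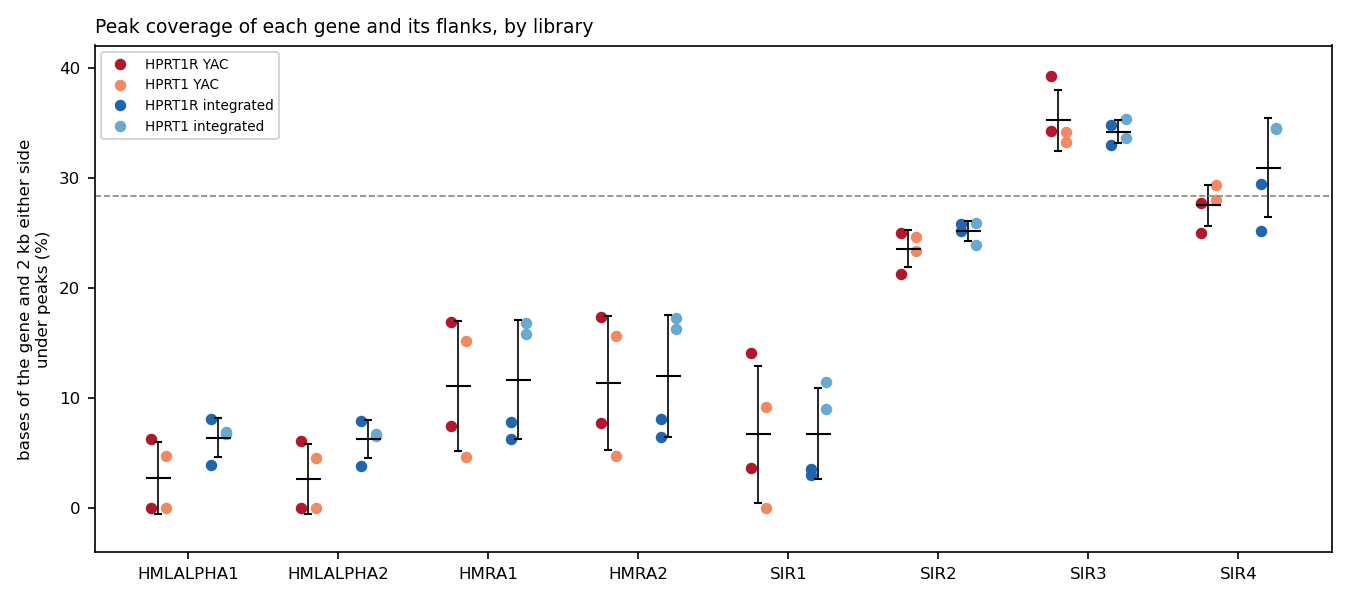
Percent of bases of each gene and 2 kb either side under peaks, 1 point per library, with the mean and SD of the 4 YAC libraries (left of each pair) and of the 4 integrated libraries (right). The dashed line is the median of all 6002 genes, 28.4%. The groups overlap for all 8 genes, and the cassette genes and SIR1 lie below the line in every library.

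Most other genes of silencing were marked in every library. A list of 34 genes was taken for silencer binding, ribosomal DNA silencing, telomere and histone functions, chromatin assembly and NAD supply. Of these, 26 were marked in all 8 libraries (76.5%, against 66.5% of all coding genes), and 1 in none. The median of their mean folds was 2.44, as over all coding genes. The highest mean folds were those of HST1, NET1 and RLF2. HST1, a deacetylase and paralog of SIR2, had 3.92 ± 0.654, and NET1, an anchor of silencing in the nucleolus, 3.90 ± 0.735. RLF2, the large subunit of chromatin assembly factor I, had 3.12 ± 0.322 (SD, n = 8 each). By the summit rule HST1 and RLF2 counted in 0 libraries and NET1 in 2. Whether these folds belong to a neighbouring gene was not tested. The genes under 8 libraries were SUM1, a repressor, and RIF1, a telomere protein, with 7 each, RIF2, a telomere protein, with 5, and RFM1, which links SUM1 and HST1, and YKU70, a subunit of the Ku complex, with 3 each. ORC5, an origin recognition subunit, and ASF1, a histone chaperone, were marked in 1, and YKU80, the other Ku subunit, in 0.

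The genes most like SIR1 to SIR4 in the rank of their start peak were found over all genes marked in the same libraries. SIR1 was nearest to VPS74 and FRQ1, which share a peak, with a mean absolute difference of 6.54 percentiles over 7 libraries. SIR2 was nearest to NOP10 and OSH3, which also share a peak, at 3.63 percentiles over 8 libraries. SIR3 was nearest to ECM7, with which it shares its peak, and then to FOL3, at 4.94 percentiles. SIR4 had no near neighbour, with NOP12 and TOR2 both at 11.9 percentiles. In HPRT1R YAC replicate 1 and both HPRT1 integrated libraries, however, the rank used for SIR4 was that of the merged peak, with its summit upstream of the gene.

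Genes with no peak over the gene or 2 kb on either side in any library numbered 163, or 2.72% of coding genes, and none of the 8 genes was among them. The stretch has a length only where a library has a peak on both sides, and 65 of these genes, with stretches that ran to a chromosome end in every library, were not ranked. By the median length in the libraries that gave one, the first 8 of the others were THI5, DDI3, SNZ3, SNO3, AQY3, YFL051C, ZNF1 and DAK2 on chromosome VI, with a length in 3 or 4 libraries, followed by FIT1 and PAD1 on chromosome IV, with one in 8. HMLALPHA1 and HMLALPHA2 missed this set through the YCL068C peak in 6 libraries, HMRA1 and HMRA2 through the peak at HMR in 8. For genes with close copies elsewhere, an absence of peaks cannot be told apart from a loss of reads matching both places.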

How the data were processed

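H3K4me3 CUT&RUN peak lists of 8 libraries were analysed. The submitters' processing notes list the build sacCer3 and the tools MACS2 2.1.0, Bowtie2 2.2.9, deepTools 3.5.0, SAMtools 1.9 and bcl2fastq 2.20. Not given in the sources used here are the caller settings, the mapping-quality minimum and the use of the IgG samples; each list belongs to 1 sample in the labels. For every peak the authors deposited a score, the fold of observed over expected pileup (ratio), the −log10 of both its p-value and q-value, and an offset of the summit (other). They were used only within 1 list. The summit pileup was solved for from the deposited fold and p-value. It matched within 0.01 in −log10 p for 99.9 to 100.0% of native peaks. Reads per library cannot be read from peak lists, and where no peak was called the depth is unknown, so intervals were left out.

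Gene positions were read from RefSeq's R64 table. It has no UTRs (96.4% of gene lengths are multiples of 3), so starts are coding starts, and strand was read from the systematic names. Peaks over the named genes or within 2 kb were taken, and a 1 bp overlap counted. Covered shares of all 6002 coding nuclear genes were compared, 4 libraries against 4, by exact permutation of the difference of means (two-sided), with Benjamini-Hochberg adjustment over all genes. The scripts were tested on simulated data. The alternatives tried were stricter or equal numbers of peaks, other start rules, flanks of 1 and 5 kb, pairing, and leaving out each library.

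The genes named besides the 8 were the MATALPHA genes, the genes at the cassette borders and beside SIR peaks, the 3 strongest silencing genes marked in all libraries and all those marked in fewer, up to 10 peak-free genes with the longest gaps, and the 2 genes most like each SIR gene. The members and lists were chosen with earlier results of these data known. No sequences are printed. Python 3.11.15, numpy 2.4.6, pandas 2.3.3, SciPy 1.17.1 and matplotlib 3.10.9 were used.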

Additional observations from a re-analysis of the deposited data

Results flagged for a closer look

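In 32 groups of 4 libraries (each of the 8 genes in the YAC, integrated, HPRT1R and HPRT1 libraries), the share of the gene and 2 kb either side under peaks had 5 values far from the other 3 of their group. About 1 in 20 groups is marked this way by chance, and HMRA1 and HMRA2 share their peak, so that the values of these 2 genes are not separate. In HPRT1R libraries, HPRT1R YAC replicate 1 was highest at 16.9% for HMRA1, where the next value was 7.84%, at 17.4% for HMRA2, where the next was 8.07%, and at 14.1% for SIR1, where the next was 3.62%. In HPRT1 libraries, HPRT1 YAC replicate 1 was lowest at 4.66% for HMRA1, where the next value was 15.2%, and at 4.79% for HMRA2, where the next was 15.6%.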

How the results depend on the processing

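No library had a peak over the HML genes under either stricter selection of peaks. A peak over the HMR genes was kept in 7 of 8 libraries with a −log10 q of at least 5 and in 6 with equal numbers of peaks. The start calls moved with the rule. Marked in all 8 libraries were 5 of the 8 genes as reported, 2 with a −log10 q of at least 5, 2 with equal numbers of peaks, 0 by the summit rule, 2 where at least 50% of the window had to lie under peaks, and 5 to 6 with each library left out. Marked in none were 2 as reported, 6 by the summit rule and 4 by the window rule. The YCL068C peak was seen in 6 libraries as reported, in 3 with the stricter q and in 1 with equal numbers. To the right of HML the YAC edges, 3276 to 3395 bp away, were farther than the integrated ones with either selection, the farthest integrated edge with equal numbers being 3243 bp away, in HPRT1R integrated replicate 1. The median distance to the left edge at HMR, 5014 bp, was 3839 to 6188 bp with each library left out. No right-edge median could be given for HMR, which had such a peak in 1 library.

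Genes with YAC libraries all above integrated ones numbered 69 as reported, 42 with 5 kb flanks and 99 to 165 with each library left out. Those all below numbered 532, and 634 to 898. Genes with HPRT1R libraries all above HPRT1 ones numbered 24, 13 with 5 kb flanks and 40 to 81 with each left out, and those all below 64, and 105 to 363. Fewer libraries make separation more frequent by construction. With the replicate block the counts were 199 and 1144 for YAC and 144 and 457 for HPRT1R, where 4 pairs cannot give a p below 0.125. Deviations of same-numbered libraries correlated with r of 0.0170, -0.166, -0.259 and 0.0402. The labels give them only a shared number, and these values cannot show whether they shared a preparation.

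No covered share of the 8 genes was called at an adjusted p of 0.05, while several values moved and several signs turned. With 5 kb flanks the YAC differences were -6.50 for HMLALPHA1 and -6.44 for HMLALPHA2, both at the smallest exact permutation p of 0.0286 (adjusted p = 0.228), against -3.68 and -3.59 as reported, and 11.8% of all genes then had all YAC libraries below. With 1 kb they were 0 and -6.32, that of SIR2 was -2.32 (exact permutation p = 0.0286, adjusted p = 0.334), as 7.48% of all genes had all YAC libraries below, and that of SIR4 -0.0741, or -6.13 with equal numbers of peaks. The HPRT1R difference of SIR4, -4.73 as reported, was -2.14 with 1 kb, where HMRA1 and HMRA2 were at -6.30 and -6.64, and -2.0 with equal numbers, where these were at -3.89 and -4.01. Signs turned as follows. With 5 kb flanks the YAC difference was 1.46 for HMRA1 and 1.48 for HMRA2, and the HPRT1R difference of SIR2 was 1.23, or 0.488 with 1 kb. With each library left out, the YAC difference ran from -2.56 to 1.52 for HMRA1, -2.63 to 1.56 for HMRA2, -2.49 to 2.22 for SIR1 and -0.310 to 1.71 for SIR3. The HPRT1R difference ran from -1.52 to 1.54 for HMLALPHA1, -1.48 to 1.51 for HMLALPHA2, -4.01 to 0.0210 for SIR1, -0.642 to 0.864 for SIR2 and -0.0577 to 2.04 for SIR3. The cause was not tested. Pileups of 112 to 138 reads set the counting error of the weak YCL068C peak.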
